A study of Mus musculus with 24 samples.

Results

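The BCL2 family decides whether a cell keeps its mitochondria intact or dies by apoptosis, and 10 genes of that family were followed here across 24 RNA sequencing libraries of mouse T cells. The members were listed by name: the survival genes Bcl2, Bcl2l1, Mcl1 and Bcl2a1b, the effector genes Bax and Bak1, and the BH3-only genes Bcl2l11, Bid, Bbc3 and Pmaip1. They are 10 of 35868 genes to which the transcripts in the files could be summed. The study asked how overexpressed β-catenin changes donor T cells in allogeneic transplantation. Donors were C57BL/6 wild type (WT) mice or mice carrying Cat-Tg, an N-terminally truncated human β-catenin kept heterozygous. Per the study's methods it was cloned into p1017, a vector with the proximal promoter of Lck, which is active in T cells. The DNA was injected into FVB mice, and several founders were bred and backcrossed to C57BL/6. The number of backcrosses is not given, and the part of strain background in differences between genotypes was not tested. The founder used for these libraries is not named. Mice were matched for age and sex. CD8 or CD4 T cells were sorted from the spleen of donors before transplantation (pre-tx), or from the spleen of recipients at day 7 after transplantation (post-tx), where donor cells were recognised by H-2Kb. The recipients were BALB/c mice given a lethal dose of radiation. They had received CD4 and CD8 T cells of the same genotype mixed in equal parts, together with T cell-depleted WT bone marrow. There were 3 libraries in each of 8 groups. Pre-tx and post-tx libraries come from different mice. Both T cell types were sorted from every mouse, per the study's methods, so the CD8 and CD4 libraries of a group share 3 mice; the tests of CD8 against CD4 treat them as independent, and values with a block by mouse, which takes equal replicate numbers as 1 mouse, are given beside them. The labels do not tie replicate numbers to mice, and p-values measure only the spread between these samples, part of which may be technical.

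Proteins of this family meet at the outer membrane of the mitochondrion. BAX and BAK open it and release cytochrome c, which starts the caspases; BCL2, BCL-XL (the product of Bcl2l1), MCL1 and A1 (the product of Bcl2a1b) hold them in check; BIM (Bcl2l11), BID, PUMA (Bbc3) and NOXA (Pmaip1) carry only the BH3 domain and turn the balance toward death. In T cells, BCL2 is kept up by interleukin 7 in resting cells, BCL-XL and A1 are induced by antigen receptor and co-stimulatory signals, BIM removes activated cells when a response contracts, and Bbc3 and Pmaip1 are targets of p53.

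Bcl2a1b is a member of a recent mouse gene cluster, and the sequences of its paralogs are shown because reads that fit several of them are divided by the quantification. In the GENCODE M21 annotation (GRCm38) Bcl2a1b lies on chromosome 9 from 89199209 to 89207827 on the plus strand, Bcl2a1a from 88956900 to 88962419 on the plus strand and Bcl2a1d from 88723285 to 88731914 on the minus strand. The coding sequences of 516 bases differ from that of Bcl2a1b at 11 positions in Bcl2a1a and at 6 positions in Bcl2a1d, which makes 97.9% and 98.8% identity. Of all 31-base words in the Bcl2a1b transcript, 72.7% also occur in a transcript of Bcl2a1a or Bcl2a1d. The first 60 coding bases, all within the first coding exon, hold 6 of the positions at which the 3 genes differ, and these are in capitals:
Bcl2a1b (chr9:89199360-89199419, plus strand): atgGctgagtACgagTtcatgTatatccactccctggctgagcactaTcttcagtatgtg
Bcl2a1a (chr9:88957051-88957110, plus strand): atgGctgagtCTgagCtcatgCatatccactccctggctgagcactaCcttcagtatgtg
Bcl2a1d (chr9:88731660-88731719, minus strand): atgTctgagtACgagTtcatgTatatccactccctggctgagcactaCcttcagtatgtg
Values of Bcl2a1b are therefore given as uncertain between paralogs, and the sum of Bcl2a1a, Bcl2a1b and Bcl2a1d is given beside them.

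Bcl2l1, Bak1 and Bcl2l11 rose together in Cat-Tg T cells after transplantation (below), and the 250 bases before their start sites are shown for that reason, from RefSeq (GRCm38.p6). The window nearest the start of the transcript with the largest share of the gene's signal was taken. Of the members looked up 9 of 9 had one, and Pmaip1 was not looked up. The start site of the window lay 1111 bases from that of the transcript for Bcl2 and 3086 for Bbc3. For the other members it was at most 67 bases away. Bcl2 and Bbc3 are both among the members counted below with a GC box. Letters were searched on both strands for GGGCGG (a GC box), CTTTGAT (TCF/LEF, the partners of β-catenin on DNA), GTAAACA (FOXO), TGANTCA (AP-1) and 1 exact NF-kB sequence. Matches are in capitals. The NF-kB sequence had no variable positions, so other forms of that motif were not searched.
Bcl2l1 (chr2:152831729-152831978, minus strand): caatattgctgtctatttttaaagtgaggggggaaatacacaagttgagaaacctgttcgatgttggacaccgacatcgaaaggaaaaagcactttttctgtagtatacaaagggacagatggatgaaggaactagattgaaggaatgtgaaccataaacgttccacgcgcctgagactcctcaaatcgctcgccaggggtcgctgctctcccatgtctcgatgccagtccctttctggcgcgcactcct
Bak1 (chr17:27028628-27028877, minus strand): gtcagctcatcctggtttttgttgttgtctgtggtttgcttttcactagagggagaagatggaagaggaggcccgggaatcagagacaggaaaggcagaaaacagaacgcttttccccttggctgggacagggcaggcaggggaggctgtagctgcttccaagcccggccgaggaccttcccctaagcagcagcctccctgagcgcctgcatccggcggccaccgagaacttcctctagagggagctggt
Bcl2l11 (chr2:128125788-128126037, plus strand): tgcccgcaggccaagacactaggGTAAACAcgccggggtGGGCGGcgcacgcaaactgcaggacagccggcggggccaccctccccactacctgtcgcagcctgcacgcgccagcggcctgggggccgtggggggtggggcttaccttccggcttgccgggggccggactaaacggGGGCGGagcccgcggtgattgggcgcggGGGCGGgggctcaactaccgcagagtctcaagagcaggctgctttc
The Bcl2l11 window holds 3 GC boxes and 1 FOXO match, and the Bcl2l1 and Bak1 windows hold none of the letters searched. Among 32851 RefSeq windows of the same length, 32.7% hold GGGCGG, 3.21% CTTTGAT, 3.17% GTAAACA, 6.75% TGANTCA and 0.14% the exact NF-kB sequence. Of the 9 members, 7 have a GC box, 1 a FOXO match and 1 (Bcl2a1b) an AP-1 match in this window. There 0 have a TCF/LEF match and 0 the exact NF-kB sequence, which leaves other forms of the NF-kB motif open. A match describes letters only; these windows say nothing of sites elsewhere in the genes.

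The libraries held between 11135713 and 50519825 estimated counts, so 3 counts were worth 0.0594 to 0.269 CPM (counts scaled to a common library total). In 6 of the 8 groups the coreceptor transcripts followed the labels: Cd8a made up 99% to 99.9% of the sum of Cd4 and Cd8a in CD8 libraries and 0.0895% to 3.39% in CD4 libraries. The WT pre-tx libraries went against them, with 50% to 63.9% in those labelled CD8 and 52.4% to 65.4% in those labelled CD4. Their summed B cell markers (17 genes) reached 13900 to 23400 CPM against 579 to 5990 CPM in the other groups, and their summed T cell markers (12 genes) 1770 to 3540 CPM against 5280 to 15400 CPM. The comparisons that do not contrast WT pre-tx libraries are therefore given first. Their fits still include those libraries, which enter the scaling, the filter and the spread. Among WT CD8 post-tx libraries, Cd3e was 234, 1330 and 626 CPM. Cat-Tg CD4 post-tx replicate 1 was the shallowest library and held the most red cell transcripts of its group.

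On a per-length scale Bax and Bcl2a1b had the highest means of the family in every group. Libraries of Bcl2a1b overlapped those of the third member in Cat-Tg CD4 post-tx, WT CD8 pre-tx, WT CD4 pre-tx and WT CD8 post-tx. In WT CD8 post-tx Bcl2a1b was 579, 33.5 and 281 TPM and Bcl2l1 7.6, 36.5 and 20 TPM. Bak1 had the lowest mean in 6 of 8 groups. The exceptions were WT CD4 pre-tx (2 TPM) and WT CD8 post-tx (5.02 TPM). Gene TPM, the deposited length-normalized TPM summed over a gene's transcripts, is used for levels between genes. Group means of Bax ran from 165 TPM in Cat-Tg CD4 pre-tx to 453 TPM in WT CD8 post-tx, and those of Bcl2a1b from 49.1 TPM in WT CD4 pre-tx to 317 TPM in WT CD4 post-tx. Bak1 means ran from 0.489 TPM in Cat-Tg CD4 pre-tx to 6.77 TPM in Cat-Tg CD4 post-tx, a range of 13.8 times, against 2.74 times for Bax. Bcl2 means spanned 2.73 TPM (WT CD8 post-tx) to 31.1 TPM (Cat-Tg CD4 post-tx). In Cat-Tg CD8 pre-tx the order was Bax at 191 TPM, Bcl2a1b 104, Bid 26.3, Bcl2 12.9, Mcl1 9.43, Bbc3 8.78, Bcl2l1 8.35, Bcl2l11 3.9, Pmaip1 2.05 and Bak1 0.56 TPM; libraries of Mcl1 and Bbc3 overlapped, as did those of Bbc3 and Bcl2l1, Bcl2l11 and Pmaip1, and Pmaip1 and Bak1. In Cat-Tg CD8 post-tx Bcl2l1 came after Bcl2a1b at 48.9 TPM and Bcl2l11 after Bid at 17.3 TPM, above Bcl2 at 10.6 TPM, though the Bcl2l11 and Bcl2 libraries overlapped. In WT CD8 post-tx Bcl2 was the lowest of the members, at 2.73 ± 1.54 TPM (SD, n = 3), within the spread of Pmaip1, Bbc3 and Bak1.

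**Figure D1:**
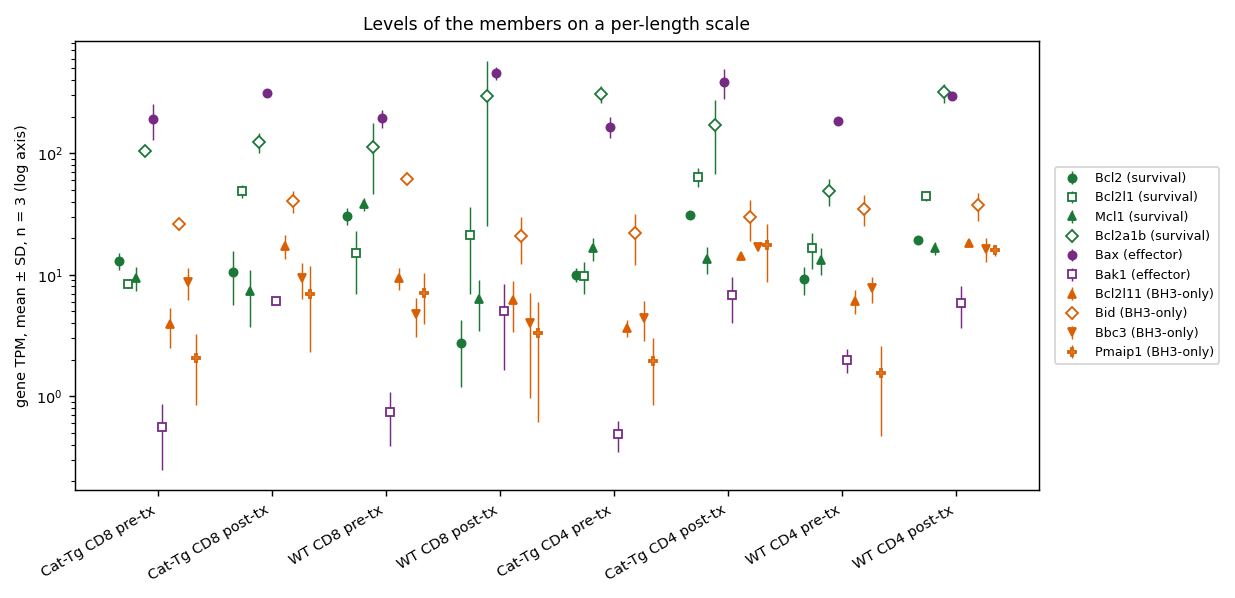
Gene TPM (log axis) of the 10 members in the 8 groups, as mean and SD over 3 libraries; green marks survival members, purple effectors and orange BH3-only members. Bax sits between 165 and 453 TPM in every group, while Bak1 stays between 0.489 and 6.77 TPM.

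The transcripts behind these levels differ in what they encode. All of the Bcl2, Mcl1, Bcl2a1b and Pmaip1 signal lay on transcripts annotated as protein coding, and at least 99.8% of Bcl2l1 and 96.4% of Bax. Of the Bak1 TPM, between 0% and 37.2% by group lay on protein-coding transcripts. Those ends belong to WT CD8 pre-tx and Cat-Tg CD8 pre-tx, with Bak1 means of only 0.74 and 0.56 TPM. In the post-tx groups the share was 3.99% to 9.89%. The remaining Bak1 TPM of each group was assigned to a pair of transcripts that M21 lists as targets of nonsense-mediated decay. For Bbc3 the protein-coding share was 34.3% to 62.2%, with 37.8% to 65.7% on a retained-intron transcript. Bcl2 was split between its long transcript of 7191 bases (38.2% to 64.1%) and a shorter transcript of 2841 bases (35.9% to 61.8%). The leading transcript held 59.9% to 78.5% of Bax and 45.6% to 77.3% of Bcl2l11. Gene counts of Bak1 and Bbc3 thus hold much signal that the annotation does not count as coding; the annotation was matched by transcript identifier without its version.

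In Cat-Tg CD8 T cells 3 of 10 members rose after transplantation and none fell. The risers came from 3 roles: Bcl2l1 among the survival genes, Bak1 among the effectors and Bcl2l11 among the BH3-only genes. Levels below are CPM scaled by TMM within the 12 libraries of a cell type, so that CD8 and CD4 levels are on separate scales, and log2 fold changes are from edgeR's quasi-likelihood test over those libraries, with Benjamini-Hochberg adjustment over all genes tested and a call at an adjusted p of at most 0.05. Of all 15975 genes tested, 14% were called, 8.73% higher and 5.25% lower.

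Bcl2l1 was 22.4, 20.1 and 24.3 CPM pre-tx and 97.4, 134 and 120 CPM post-tx. Every post-tx library was above every pre-tx library, and the log2 fold change was 2.40 ± 0.582 (SE, adjusted p = 0.0143). Bcl2l11 was 21.1, 22.3 and 8.38 CPM pre-tx and 85.7, 88.2 and 58.6 CPM post-tx. Its groups were likewise apart, with a log2 fold change of 2.17 ± 0.484 (adjusted p = 0.00882). Bak1 was 0.453, 1.6 and 1.86 CPM pre-tx and 11.6, 11.9 and 12.8 CPM post-tx. The log2 fold change of 3.20 ± 0.823 (adjusted p = 0.0192) rests on low pre-tx levels. Without Cat-Tg CD8 pre-tx replicate 1, pre-tx replicate 2 or post-tx replicate 2, Bcl2l1 (adjusted p = 0.051, 0.0625 and 0.0519) and Bak1 (0.0674, 0.0578 and 0.051) were no longer called, which left Bcl2l11 as the only called member in those fits.

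The remaining members did not pass the test in Cat-Tg CD8. Bcl2 was 94.2, 62.3 and 81.6 CPM pre-tx and 80.5, 47.8 and 46.4 CPM post-tx, and the groups overlapped. Mcl1 went from 38.7 ± 7.92 to 25.3 ± 11.6 CPM (SD, n = 3), and Bcl2a1b from 71.3 ± 3.96 to 76.7 ± 13.5 CPM. Bax was 147, 91.6 and 205 CPM pre-tx and 223, 218 and 212 CPM post-tx, which do not overlap. Pmaip1 had 2.54, 8.42 and 4.83 CPM pre-tx and 30.2, 13.4 and 7.44 CPM post-tx. Bid (66.1 ± 11.8 and 86.7 ± 17.6 CPM) and Bbc3 (11.5 ± 3.39 and 11.5 ± 4.17 CPM) overlapped between the times. In the same comparison 0 of 12 T cell markers were called by edgeR, with sums of 7390 to 9410 CPM pre-tx and 9890 to 10500 CPM post-tx, whereas 14 of 17 B cell markers were lower, with sums of 1250 to 2860 and 794 to 855 CPM. Of 12 myeloid markers 2 were higher and 4 lower (sums of 414 to 2440 and 354 to 708 CPM), and 0 of 8 red cell markers were called (1560 to 11200 and 2710 to 4180 CPM). The summed level of 3 NK cell genes (Ncr1, Klrb1c and Nkg7, the last also expressed by cytotoxic T cells) was 942 to 1310 CPM pre-tx and 5380 to 5890 CPM post-tx. What part these played in the members' values was not tested. In sorted bulk samples, fewer cells of a type and less RNA per cell cannot be told apart.

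**Figure D2:**
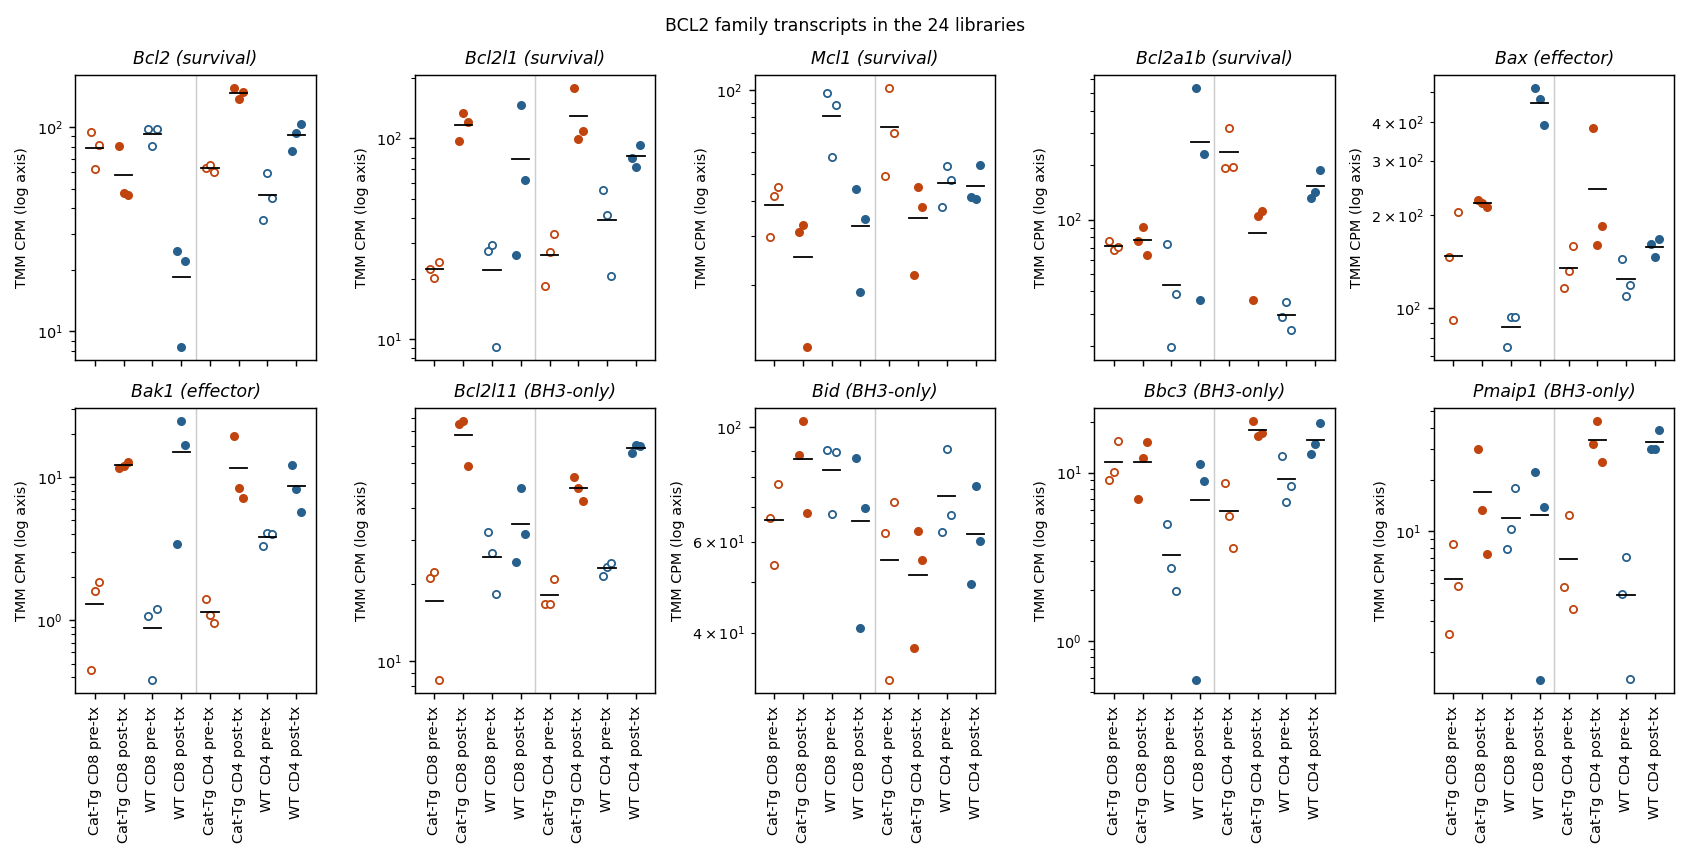
TMM CPM (log axis) of each member in every library; open circles are pre-tx, filled circles post-tx, orange Cat-Tg, blue WT, and the bar is the mean of 3 libraries. Bcl2l1 rises from 20.1 to 24.3 CPM in Cat-Tg CD8 pre-tx to 97.4 to 134 CPM post-tx, and WT CD8 post-tx stands lowest for Bcl2.

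In Cat-Tg CD4 T cells 9 of 10 members changed after transplantation, 7 higher and 2 lower, in a comparison that called 45.2% of all 17243 genes tested, 16.2% higher and 29% lower. Of its calls 35.9% were higher, against 49% with TMM factors from all 24 libraries and 53.8% without the WT pre-tx libraries. The median log2 fold change was 1.31 over the members and -0.38 over all genes. Among the survival genes Bcl2 and Bcl2l1 rose and Mcl1 and Bcl2a1b fell, while all effectors and 3 of 4 BH3-only genes rose.

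Bcl2 was 63.1, 65.5 and 60.5 CPM pre-tx and 156, 137 and 148 CPM post-tx. These were the tightest groups of the comparison and lay far apart, with a log2 fold change of 1.22 ± 0.247 (adjusted p = 0.00136). Bcl2l1 went from 18.3, 27.1 and 33.5 CPM to 179, 99.4 and 109 CPM, with a log2 fold change of 2.29 ± 0.369 (adjusted p = 0.000247). Mcl1, which encodes a short-lived survival protein, went from 49.4, 102 and 70.1 CPM to 21.8, 45 and 38 CPM. Its log2 fold change of -1.08 ± 0.332 (adjusted p = 0.016) was no longer past the threshold when TMM factors came from all 24 libraries (-0.74, adjusted p = 0.0813), a scaling that moved the median of all genes by 0.32 in this comparison. It was also not called without a filter (-0.71), without the WT pre-tx libraries (-0.74) or without Cat-Tg CD4 pre-tx replicate 2 (-0.79). Bcl2a1b fell from 192, 320 and 196 CPM to 35.9, 104 and 112 CPM, with a log2 fold change of -1.49 ± 0.36 (adjusted p = 0.00424). For the 3 paralogs summed the log2 fold change was -0.94 ± 0.328 (adjusted p = 0.0286), and Bcl2a1a alone rose from 11.2 ± 2.87 to 29 ± 12.6 CPM (SD, n = 3), so the direction was not the same for each paralog as quantified.

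Bak1 rose from 1.4, 1.09 and 0.956 CPM to 19.3, 8.33 and 7.13 CPM, a log2 fold change of 3.32 ± 0.569 (adjusted p = 0.000408). Bax was 116, 132 and 159 CPM pre-tx and 381, 160 and 184 CPM post-tx. The groups touched at 159 and 160 CPM, and the log2 fold change of 0.83 ± 0.293 (adjusted p = 0.0298) became 0.34 (adjusted p = 0.209) without post-tx replicate 1, the library with 27300 CPM of red cell transcripts. The Bax call was also lost with limma-voom (0.65), with the replicate block (0.73) and without pre-tx replicate 1 or pre-tx replicate 2. Bcl2l11 rose from 16.7, 16.7 and 21 CPM to 52.8, 47.7 and 42.5 CPM, with a log2 fold change of 1.39 ± 0.258 (adjusted p = 0.000737). Bbc3 and Pmaip1 rose as well. Bbc3 went from 8.67, 5.54 and 3.54 CPM to 20.4, 16.5 and 17.1 CPM (log2 fold change 1.60 ± 0.434, adjusted p = 0.00814). Pmaip1 went from 4.76, 12.5 and 3.54 CPM to 32.1, 44.2 and 25.4 CPM (2.29 ± 0.555, adjusted p = 0.00431). Bid, with 55.4 ± 20.5 CPM pre-tx and 51.8 ± 13.1 CPM post-tx, was the member not called.

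Markers of other cells moved in the same comparison. Of 8 red cell markers 7 were higher post-tx (sums of 1590 to 2650 CPM pre-tx and 4280 to 27300 CPM post-tx), as were 8 of 12 myeloid markers (1510 to 2320 and 3180 to 4390 CPM). Of 12 T cell markers 5 were lower (8250 to 10300 and 5280 to 6460 CPM), and 13 of 17 B cell markers were lower (4250 to 5990 and 2520 to 4920 CPM). The 3 NK cell genes summed to 209 to 260 CPM pre-tx and 1610 to 1710 CPM post-tx. Their part in the members' values was not tested.

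**Figure D3:**
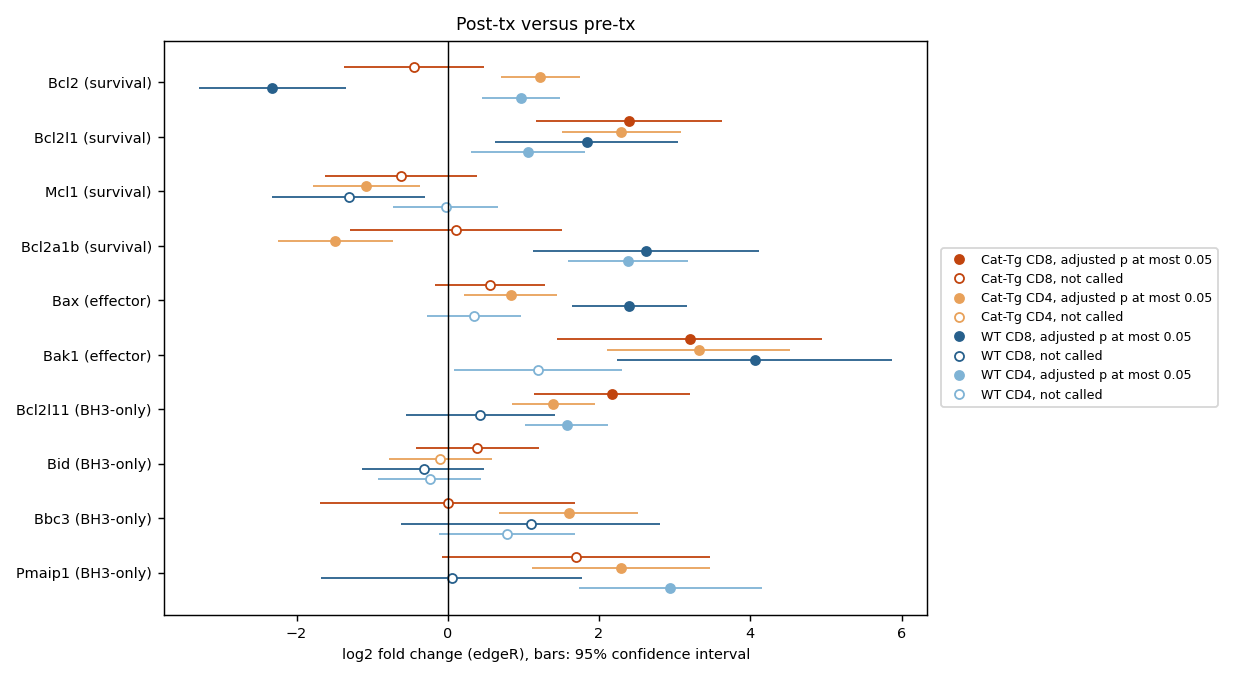
Log2 fold change of each member post-tx versus pre-tx in the 4 genotype and cell type groups, from edgeR, with 95% confidence intervals; filled points have an adjusted p of at most 0.05. Bcl2 lies at 1.22 in Cat-Tg CD4 and 0.97 in WT CD4 but at -2.32 in WT CD8, and Bak1 lies between 3.20 and 4.06 in the 3 groups where it was called; the WT values rest on the WT pre-tx libraries described above.

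The other genes of the pathway were read from 5 lists: other BCL2 family genes (16), caspases and the apoptosome (10), inhibitors of apoptosis and their antagonists (9), p53 and its targets (14), and survival cytokine receptors with their transcription factors (14). In Cat-Tg CD8, 15 of 57 tested genes of these lists were higher post-tx and 4 lower. Of 10 caspase and apoptosome genes 4 were higher and none lower, with a list median log2 fold change of 1.75 against -0.26 over all genes. That count was 2 with DESeq2's size factors or the replicate block, 6 with DESeq2, limma-voom or no filter, and 1 to 2 when any of the 6 libraries was left out. Apaf1, the scaffold of the apoptosome, went from 4.4 ± 1.87 to 24.2 ± 17 CPM (2.46 ± 0.63, adjusted p = 0.0188). The Apaf1 call was lost with length-scaled TPM (1.06), with the replicate block (2.28) and when any of 3 of the 6 libraries was left out. Among inhibitors, Birc5 (survivin, which is also a mitotic protein) rose from 12.5 ± 2.76 to 332 ± 46.2 CPM (4.73 ± 0.392, adjusted p = 4.74e-06). Birc2 (cIAP1) fell from 80.2 ± 9.53 to 14.6 ± 7.29 CPM (-2.46 ± 0.679, adjusted p = 0.0273), a call lost when any of 4 of the 6 libraries was left out. Il7r, the interleukin 7 receptor chain, fell from 352 ± 51.3 to 42.9 ± 7.2 CPM (-3.04 ± 0.461, adjusted p = 0.00071). Il2ra rose from 0.779 ± 0.463 to 42.3 ± 13.8 CPM and Il2rb from 288 ± 24.8 to 2570 ± 122 CPM, chains of the interleukin 2 receptor. Of 13 p53 genes tested 4 were higher, among them Gtse1 (5.01 ± 0.969, adjusted p = 0.00385), a gene of dividing cells, and 1 lower, Sesn1 (-3.24 ± 0.493, adjusted p = 0.00072). Of the other BCL2 family genes, Bcl2a1d rose from 13.1 ± 0.753 to 58 ± 14.3 CPM (adjusted p = 0.0333), and Bnip3, a mitophagy gene, fell from 11.9 ± 4.2 to 0.433 ± 0.473 CPM (adjusted p = 0.0196). Bcl2a1d was not called when any of 5 of the 6 libraries was left out, nor Bnip3 when either of 2 was.

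In Cat-Tg CD4, 18 of 60 tested genes of the lists were higher post-tx and 13 lower. Cdkn1a (p21), the best known p53 target, rose from 4.88 ± 1.55 to 163 ± 94.6 CPM (5.06 ± 0.433, adjusted p = 1.83e-06), with 6 of 14 p53 genes higher and 4 lower. Caspases and apoptosome genes were again 4 higher and none lower of 10, with Casp9 (1.60 ± 0.336, adjusted p = 0.00179) and Apaf1 (1.57 ± 0.337, adjusted p = 0.00201) highest. With length-scaled TPM the count was 2, and Apaf1 was at 0.9 and not called. Of 9 inhibitors 1 was higher, Birc5 (2.82 ± 0.277, adjusted p = 5.48e-06), and 4 were lower, with Birc2 (-2.15 ± 0.374, adjusted p = 0.000445) and Xiap (-1.13 ± 0.433, adjusted p = 0.0432) lowest. The Xiap call held in 1 of 8 alternatives (-1.11 to -0.77) and in 2 of 6 fits that left out a library. Il7r went from 419 ± 85.8 to 138 ± 55 CPM (-1.60 ± 0.406, adjusted p = 0.00557) and Foxo1, a factor that drives Il7r and Bcl2l11, from 42.7 ± 4.96 to 19.4 ± 4.89 CPM (-1.14 ± 0.284, adjusted p = 0.00511); neither was called without a filter (-1.24 and -0.8). Nfkb1 rose from 46.2 ± 22.7 to 303 ± 51.9 CPM (2.71 ± 0.344, adjusted p = 3.74e-05). Of 13 other BCL2 family genes 2 were higher (Bcl2a1a and Bcl2l13) and 3 lower (Bmf, Bnip3 and Bnip3l). The count of 5 called genes was 3 with the replicate block and 1 to 4 when a library was left out; Bmf held in 3 of 8 alternatives, Bnip3 in 4 and Bnip3l in 5. The lists were chosen with earlier results of these data known.

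Between genotypes after transplantation, none of the 10 members passed the test in CD8 or in CD4 T cells. In CD8, edgeR called 0 of 10 members against 1.67% of 15975 genes. An unadjusted p under 0.05 in edgeR was held by 4 members and by 3047 of all genes. DESeq2 called 3 members (Bcl2, Bax and Bcl2a1b) and 1368 genes in all, and limma-voom 0 members and 241 genes. In CD4, edgeR called 0 of 10 against 10.2% of 17243 genes, and 2 members and 4232 of all genes had an unadjusted p under 0.05. DESeq2 called 1 member and 2678 genes in all, and limma-voom 0 members and 1357 genes. Of the CD4 calls over all genes 36.3% were higher in Cat-Tg, against 49.3% with TMM factors from all 24 libraries and 50.8% without the WT pre-tx libraries. Bcl2 had the higher values in Cat-Tg in both cell types without passing this threshold.

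In CD8 post-tx, Bcl2 was 80.5, 47.8 and 46.4 CPM in Cat-Tg and 24.8, 8.35 and 22.2 CPM in WT. No library overlapped, and the log2 difference was 1.66 with a 95% confidence interval of 0.70 to 2.61 (adjusted p = 0.0683 by edgeR; 0.00865 by DESeq2). Bcl2l11 was 85.7, 88.2 and 58.6 CPM in Cat-Tg and 24.4, 48 and 31.6 CPM in WT, also apart, with an interval of 0.16 to 2.16 on the log2 scale (adjusted p = 0.205, edgeR). Bax was 223, 218 and 212 CPM in Cat-Tg and 516, 475 and 390 CPM in WT, with an interval of -1.81 to -0.35 (adjusted p = 0.117 by edgeR; 0.02 by DESeq2). Bcl2a1b was 75.7, 90.7 and 63.7 CPM in Cat-Tg and 538, 35.7 and 232 CPM in WT. The WT values lay on both sides of the Cat-Tg values, and the log2 difference of -1.81 (adjusted p = 0.18, edgeR) became -1.12 with limma-voom, -0.69 without WT CD8 post-tx replicate 1 and -2.23 (adjusted p = 0.0187) without replicate 2. Intervals of the other members all spanned 0: -0.60 to 1.76 for Bcl2l1, -1.37 to 0.64 for Mcl1, -1.91 to 1.29 for Bak1, -0.41 to 1.21 for Bid, -0.96 to 2.43 for Bbc3 and -1.27 to 2.18 for Pmaip1. Differences of 2-fold or more, a log2 value of 1, are inside each of these intervals. Of the markers, 1 of 12 myeloid and 1 of 8 red cell genes were higher in Cat-Tg. In these libraries 0 of 57 pathway genes were called by edgeR, and 10 had an unadjusted p under 0.05, against 3047 of all 15975 genes. DESeq2 called 4 pathway genes and limma-voom 1, against 1368 and 241 of all genes. Summed red cell markers were 2710 to 4180 CPM in Cat-Tg and 241 to 1990 CPM in WT, and summed T cell markers 9890 to 10500 and 8260 to 15400 CPM; their part was not tested.

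In CD4 post-tx, Bcl2 was 156, 137 and 148 CPM in Cat-Tg and 76.3, 94 and 103 CPM in WT. The libraries did not overlap, and the log2 difference was 0.69 with a 95% confidence interval of 0.17 to 1.21 (adjusted p = 0.0851, edgeR). It passed the threshold with DESeq2 (0.83), with counts from length-scaled TPM (0.78), without the WT pre-tx libraries (0.86) and with TMM factors from all 24 libraries (0.91). Bcl2a1b was 35.9, 104 and 112 CPM in Cat-Tg and 131, 142 and 188 CPM in WT, a log2 difference of -0.87 (interval -1.62 to -0.12, adjusted p = 0.138, edgeR). Bcl2l1 (179, 99.4 and 109 against 79.9, 72.3 and 93 CPM) and Bcl2l11 (52.8, 47.7 and 42.5 against 65.5, 70.7 and 69.7 CPM) did not overlap between genotypes either, with intervals of -0.09 to 1.40 and -1.06 to 0.01. For Bax the interval was -0.01 to 1.23, for Bak1 -0.68 to 1.49, for Mcl1 -1.07 to 0.32, for Bid -0.95 to 0.42, for Bbc3 -0.70 to 1.09 and for Pmaip1 -1.08 to 1.15. Of 60 pathway genes 3 were higher in Cat-Tg, namely Bcl2a1a (1.51 ± 0.436, adjusted p = 0.0385), Cdkn1a (1.30 ± 0.368, adjusted p = 0.0346) and Phlda3 (1.65 ± 0.505, adjusted p = 0.0485), and 1 lower, Foxo1 (-1.01 ± 0.283, adjusted p = 0.0337). When each of the 6 libraries was left out in turn, Phlda3 was called in 0 fits, Bcl2a1a and Foxo1 in 1 each and Cdkn1a in 2, with Cdkn1a at 0.72 without Cat-Tg CD4 post-tx replicate 1. Foxo1 also lost its call in 4 of 8 other alternatives (-1.04 to -0.77 over the 8), among them the fit without the WT pre-tx libraries, Phlda3 with length-scaled TPM and the block, and Bcl2a1a with the block (1.41). Beside these, 6 of 17 B cell markers were higher and 2 lower, 2 of 12 T cell markers were lower, and 8 of 8 red cell markers (sums of 4280 to 27300 CPM against 700 to 1330 CPM) and 6 of 12 myeloid markers (3180 to 4390 against 934 to 1460 CPM) were higher in Cat-Tg; their part was not tested.

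Whether the genotypes differed by unlike amounts in CD8 and CD4 post-tx was tested as an interaction over all 24 libraries. It called 0 of 10 members with edgeR, against 0.629% of 19092 genes. With limma-voom it called 0 members and 89 genes in all, and with DESeq2 1 member and 713 genes. It gave 2 members and 2406 of all genes an unadjusted p under 0.05 in edgeR. Of its calls over all genes 47.5% were higher in CD8, against 28.3% with DESeq2's size factors and 69.6% without the WT pre-tx libraries. With the block by mouse it called 0 of 10 members and 12 genes in all, against 120 without it. With DESeq2's size factors it called 1 member and 120 genes. The 2 members with an unadjusted p under 0.05 in edgeR were Bax and Bcl2l11. Bax was at -1.82 ± 0.443 (CD8 minus CD4, 95% confidence interval -2.74 to -0.91, adjusted p = 0.0548). Bcl2l11 was at 1.55 ± 0.501 (interval 0.52 to 2.58, adjusted p = 0.147).

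**Figure D4:**
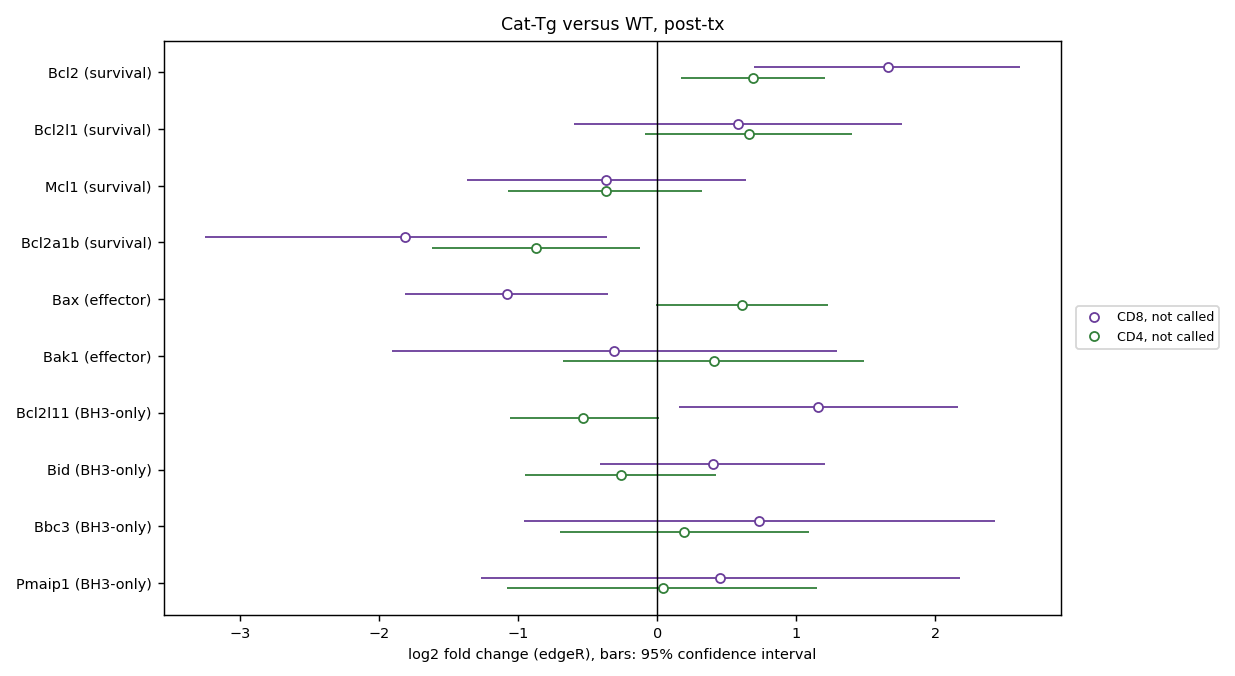
Log2 difference of each member between Cat-Tg and WT post-tx libraries in CD8 and CD4 T cells, from edgeR, with 95% confidence intervals; open points are not past an adjusted p of 0.05, and no point is filled. Bcl2 lies at 1.66 in CD8 and 0.69 in CD4, with intervals that do not reach 0.

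Bcl2 was lower in CD8 than in CD4 T cells after transplantation in both genotypes, though in Cat-Tg not with the block by mouse, and Bax was higher in CD8 in WT. In Cat-Tg post-tx, 1 of 10 members differed between CD8 and CD4 (lower in CD8), against 6% of 19092 genes, 4.51% of them lower. This fit places all libraries on 1 scale, where Bcl2 averaged 63.6 CPM in CD8 and 151 CPM in CD4, a log2 difference of -1.25 ± 0.344 (adjusted p = 0.0291, edgeR). With the replicate block by mouse the call was lost (-1.29, adjusted p = 0.0822), and 745 genes were called in place of 1146. It was also lost without a filter, with length-scaled TPM and when any of 5 of the 6 libraries was left out, with values between -1.55 and -0.97. In WT post-tx, 2 of 10 members differed, against 13.1% of genes (5.98% higher, 7.17% lower in CD8). Of those calls 45.5% were higher in CD8, against 56.3% with DESeq2's size factors and 32.6% without the WT pre-tx libraries. Bcl2 averaged 19.1 CPM in CD8 and 80 CPM in CD4 (-2.07 ± 0.354, adjusted p = 0.000311), and Bax 476 CPM in CD8 and 139 CPM in CD4 (1.78 ± 0.32, adjusted p = 0.000518). Both kept their calls in every alternative run for them, the block by mouse included (-2.19, adjusted p = 0.00347, and 1.77, adjusted p = 0.00524), which called 1604 genes in place of 2510. Beside these values, 6 of 12 myeloid markers were lower in CD8 in Cat-Tg post-tx, with 1 of 17 B cell markers higher and 7 lower and 4 of 12 T cell markers higher. In WT post-tx 9 of 12 myeloid markers were lower, with 4 B cell markers higher and 3 lower and 4 T cell markers higher and 1 lower; their part was not tested. Before transplantation Cat-Tg CD8 and CD4 libraries differed in 0 of 10 members with edgeR, DESeq2 and limma-voom. Those tests called 1.52% of genes, 637 genes and 336 genes. In edgeR 3 members had an unadjusted p under 0.05, against 1960 of all 19092 genes. Bcl2 averaged 87.7 CPM in CD8 and 51.6 CPM in CD4 on the common scale. The WT pre-tx libraries labelled CD8 and CD4 differed in 0 of 10 members with edgeR, against 0.0367% of genes. Limma-voom called 0 members and 2 genes in all, and DESeq2 1 member and 456 genes. An unadjusted p under 0.05 in edgeR was held by 4 members and by 2683 of all genes. Of the pathway lists, 1 gene was higher and 6 lower in CD8 than in CD4 of 61 tested in Cat-Tg post-tx, with Birc5 higher (1.60 ± 0.292, adjusted p = 0.000933) and Cdkn1a (-2.81 ± 0.678, adjusted p = 0.0113), Il7r (-1.60 ± 0.438, adjusted p = 0.0274) and Nfkb1 (-1.38 ± 0.356, adjusted p = 0.0187) among the lower. Il7r and Nfkb1 were not called with the block by mouse or without a filter, and Cdkn1a, Il7r and Nfkb1 lost their calls when any of 3, 5 and 4 of the 6 libraries was left out. In WT post-tx 3 were higher and 16 lower, among them Bad (1.92 ± 0.37, adjusted p = 0.001), a BH3-only gene, Birc6 (-2.72 ± 0.446, adjusted p = 0.00022) and Apaf1 (-2.42 ± 0.49, adjusted p = 0.00152). With length-scaled TPM Birc6 was at -1.28 and Apaf1 at -1.04, and neither was called.

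The change of Bcl2 after transplantation was then compared between CD8 and CD4 in an interaction that was added after its levels had been seen. In Cat-Tg the log2 difference of the changes was -2.01 ± 0.484 (adjusted p = 0.0418, edgeR), the only member called of 10, against 0.948% of 19092 genes (0.728% lower); it was not past the threshold in fits without WT pre-tx libraries (-2.01), without a filter (-1.86), with length-scaled TPM (-1.81) or with the block by mouse (-2.04, adjusted p = 0.173), which called 79 genes in place of 181, nor when any of 11 of its 12 libraries was left out. In WT it was -3.28 ± 0.493 (adjusted p = 1e-04), with Bax at 2.05 ± 0.444 (adjusted p = 0.00264) and Bak1 at 2.90 ± 0.913 (adjusted p = 0.0315), so 3 of 10 members were called against 15.8% of genes (7.48% higher, 8.34% lower). Bak1 was not called with limma-voom (2.69), without a filter (2.70), with length-scaled TPM (2.70) or with the block by mouse (2.78, adjusted p = 0.153), which called 1815 genes in place of 3021, nor when any of 9 of its 12 libraries was left out (2.25 to 3.29). Bcl2 (-3.43) and Bax (2.05) kept their calls with that block. Beside these, 2 of 12 myeloid and 1 of 8 red cell markers were lower in Cat-Tg; in WT 6 of 12 myeloid markers were lower, 4 of 12 T cell markers higher and 1 lower, and 3 of 17 B cell markers higher and 2 lower, and their part was not tested. The WT values rest on the pre-tx libraries that went against their labels.

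TPM ratios within a library put the survival genes beside the death genes. They are given as a description, with no test. The ratio of Bcl2 to Bcl2l11 was 3.69, 2.2 and 5.05 in Cat-Tg CD8 pre-tx and 0.792, 0.432 and 0.582 post-tx. In WT CD8 post-tx it was 0.958, 0.103 and 0.658. All CD8 post-tx libraries thus held fewer TPM of Bcl2 than of Bcl2l11, and all CD4 post-tx libraries more: 2.09, 2.03 and 2.51 in Cat-Tg and 1.03, 1.04 and 1.08 in WT, where the excess is slight. The ratio of Bcl2l1 to Bcl2 went from 0.515, 0.732 and 0.739 in Cat-Tg CD8 pre-tx to 2.62, 7.01 and 6.36 post-tx, and from 0.721, 0.887 and 1.39 in Cat-Tg CD4 pre-tx to 2.54, 1.89 and 1.78 post-tx. Bcl2l1 therefore held more TPM than Bcl2 in every Cat-Tg post-tx library. The sum of the 4 survival genes over the sum of the 6 death genes was 0.615 ± 0.195 (SD, n = 3) in Cat-Tg CD8 pre-tx and 0.479 ± 0.0553 post-tx, and 1.84 ± 0.657 and 0.63 ± 0.288 in Cat-Tg CD4, sums that Bcl2a1b and Bax dominate. Without Bcl2a1b the ratio was 0.139 ± 0.04 and 0.169 ± 0.0083 in Cat-Tg CD8 and 0.189 ± 0.0413 and 0.235 ± 0.026 in Cat-Tg CD4. The means thus fell over time with Bcl2a1b and rose without it. Only in Cat-Tg CD4 with Bcl2a1b were the pre-tx and post-tx libraries apart, and elsewhere they overlapped.

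**Figure D5:**
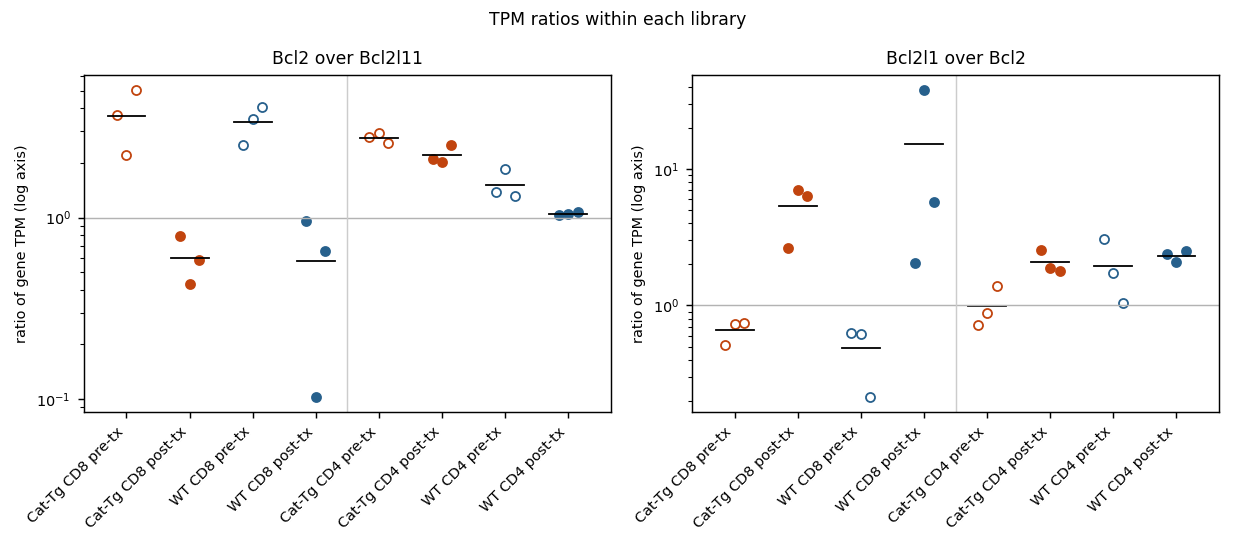
Ratios of gene TPM (log axis) in each library, Bcl2 over Bcl2l11 at left and Bcl2l1 over Bcl2 at right; open circles are pre-tx, filled circles post-tx, orange Cat-Tg, blue WT, bars the mean of 3. The 6 CD8 post-tx libraries lie between 0.103 and 0.958 for Bcl2 over Bcl2l11, below the line at 1, and the 6 CD4 post-tx libraries between 1.03 and 2.51.

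The comparisons that use WT pre-tx libraries are given as values. In WT CD8, 5 of 10 members changed post-tx, 4 higher and 1 lower, against 23.6% of 15975 genes (13.2% higher, 10.4% lower). Bcl2 was 97.6, 80.8 and 97.8 CPM pre-tx and 24.8, 8.35 and 22.2 CPM post-tx (-2.32 ± 0.457, adjusted p = 0.00183). Bax went from 74.8, 93.6 and 93.5 CPM to 516, 475 and 390 CPM (2.40 ± 0.359, adjusted p = 0.000219), and Bak1 from 1.08, 0.381 and 1.2 CPM to 3.43, 24.8 and 16.6 CPM (4.06 ± 0.855, adjusted p = 0.00294). The post-tx libraries disagree for Bcl2l1 and Bcl2a1b. Bcl2l1 was 26.1, 147 and 62.2 CPM post-tx against 27.5, 29.3 and 9.07 CPM pre-tx (1.84 ± 0.571, adjusted p = 0.0291), and 0.78 without WT CD8 post-tx replicate 2. It was not called without that library, post-tx replicate 3, pre-tx replicate 1 or pre-tx replicate 3. Bcl2a1b was 538, 35.7 and 232 CPM against 72.8, 19.6 and 38.8 CPM (2.62 ± 0.7, adjusted p = 0.0132), and was not called without WT CD8 post-tx replicate 1 (1.42) or pre-tx replicate 2 (2.27). Mcl1 averaged 81 CPM pre-tx and 32.6 CPM post-tx. Its libraries did not overlap, and it was not called (-1.31 ± 0.479, adjusted p = 0.0588, edgeR). DESeq2, limma-voom, length-scaled TPM and TMM factors from all 24 libraries each called 6 members here. They called 4943, 3831, 3566 and 3786 genes in all, against 3775. Bcl2l11, Bid, Bbc3 and Pmaip1 averaged 25.6, 82.5, 3.22 and 12 CPM pre-tx and 34.7, 65.9, 6.88 and 12.4 CPM post-tx.

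In WT CD4, 5 of 10 members were higher post-tx and none lower, against 24.4% of 17243 genes (14.8% higher). Bcl2 went from 35.2, 59.5 and 44.9 CPM to 76.3, 94 and 103 CPM (0.97 ± 0.246, adjusted p = 0.00932), and was not called without WT CD4 pre-tx replicate 1, pre-tx replicate 3 or post-tx replicate 3 (0.76 to 1.18 over the 6 libraries left out). Bcl2l11 was 21.5, 23.4 and 24.3 CPM pre-tx and 65.5, 70.7 and 69.7 CPM post-tx (1.57 ± 0.259, adjusted p = 0.000452). Pmaip1 went from 4.33, 7.15 and 1.39 CPM to 30.2, 30 and 38.8 CPM (2.94 ± 0.571, adjusted p = 0.0016). Bcl2a1b was 28.9, 34.9 and 24.6 CPM pre-tx and 131, 142 and 188 CPM post-tx (2.38 ± 0.372, adjusted p = 0.000289), the opposite direction from Cat-Tg CD4, and 2.37 ± 0.342 for the summed paralogs (adjusted p = 0.000145). Bcl2l1 went from 55.5, 41.6 and 20.6 CPM to 79.9, 72.3 and 93 CPM (1.06 ± 0.355, adjusted p = 0.0398), and was not called with DESeq2's size factors (0.97) or with TMM factors from all 24 libraries (0.93), nor when any of 5 of the 6 libraries was left out (0.58 to 1.35). Bax was 124 ± 17.8 and 158 ± 10.5 CPM, Bak1 3.81 ± 0.425 and 8.7 ± 3.22 CPM, and Mcl1 46.4 ± 7.75 and 45.4 ± 7.57 CPM. Bid was 73.7 ± 15 and 62.2 ± 13.8 CPM and Bbc3 9.18 ± 3.05 and 15.7 ± 3.48 CPM. In both WT cell types 17 of 17 B cell markers were lower post-tx, and T cell markers were higher for 10 of 12 in CD8 and 12 of 12 in CD4. Of 8 red cell markers 7 were lower in each (sums of 2970 to 10500 and 241 to 1990 CPM in CD8, 9580 to 27900 and 700 to 1330 CPM in CD4), as were 7 of 12 myeloid markers in CD8 and 1 of 12 in CD4. The 3 NK cell genes summed to 237 to 381 CPM pre-tx and 2790 to 11600 CPM post-tx in CD8, and to 496 to 679 and 2040 to 3030 CPM in CD4; their part was not tested.

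Between genotypes before transplantation, 0 of 10 members were called in CD8 by edgeR, DESeq2 or limma-voom. Those tests called 8.99% of genes, 2616 genes and 2051 genes. In edgeR 3 members had an unadjusted p under 0.05, against 3694 of all 15975 genes. In CD4, 1 was higher and 1 lower in Cat-Tg, against 20.4% of genes, 13.3% higher and 7.18% lower. Of those calls 64.9% were higher, against 51.8% with DESeq2's size factors and 47.7% with TMM factors from all 24 libraries. Bcl2a1b was 192, 320 and 196 CPM in Cat-Tg and 28.9, 34.9 and 24.6 CPM in WT (3.00 ± 0.381, adjusted p = 9.29e-05), and 2.59 ± 0.345 for the summed paralogs (adjusted p = 0.000132). Bak1 was 1.4, 1.09 and 0.956 CPM in Cat-Tg and 3.32, 4.1 and 4.01 CPM in WT (-1.72 ± 0.542, adjusted p = 0.0338), and lost its call when any of 4 of the 6 libraries was left out. An interaction of genotype and time was called for 1 of 10 members in CD4, Bcl2a1b (post-tx minus pre-tx, -3.87 ± 0.517, adjusted p = 0.000167), against 21.3% of genes (14.1% lower). Of those calls 34% were higher, against 52.3% with DESeq2's size factors and 62.1% with TMM factors from all 24 libraries. In CD8 it was called for 1 of 10, Bax (-1.84 ± 0.486, adjusted p = 0.0243), against 10.7% of genes (4.77% lower). The Bax call was lost without a filter (-1.69), with the replicate block (-1.77) and when any of 7 of the 12 libraries was left out (-1.92 to -1.31). Beside the pre-tx values, 17 of 17 B cell markers were lower and 12 of 12 T cell markers higher in Cat-Tg CD4, and 16 of 17 lower and 8 of 12 higher in Cat-Tg CD8. Of 12 myeloid markers 3 were lower in Cat-Tg CD4 and 4 in Cat-Tg CD8, and of 8 red cell markers 6 and 0; their part was not tested.

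Bcl2l1, Bak1 and Bcl2l11 rose together in Cat-Tg T cells post-tx, and their correlations over the 24 libraries are given for that reason. A high r between them follows in part from that choice and is no separate finding. Pearson's r of log2 CPM was 0.83 between Bcl2l1 and Bak1, 0.81 between Bcl2l1 and Bcl2l11 and 0.71 between Bak1 and Bcl2l11. Mcl1 ran against them, at -0.68 with Bcl2l1 and -0.68 with Bak1. Bcl2 was near 0 with Bcl2l1 (-0.03) and Bcl2l11 (0.09). The points share the 8 groups and their time, so these are descriptions with no p. Among 16767 protein-coding genes, those most like Bak1 were Sirt2 (0.963), Pofut2 (0.943) and Nucb1 (0.933), and those most like Bcl2l1 were Tap2 (0.938), Il12rb1 (0.930) and Snx3 (0.923). For Bcl2 they were 9930111J21Rik1 (0.927), Clip1 (0.912) and Rasgrp1 (0.904), for Bax Smdt1 (0.959), Psmg4 (0.948) and Mydgf (0.947), and for Bcl2l11 Cit (0.927), Rtn3 (0.916) and Cyfip2 (0.909). Bid had the weakest partners, led by Klre1 (0.803).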

How the data were processed

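For each library the authors deposited a Kallisto 0.46.2 table of estimated counts and TPM per transcript; estimated counts are unnormalized. The index release is not given in the sources used here, and the labels name mm9. Of 117497 transcripts, 116428 matched GENCODE M21 by identifier without version (99.64% to 99.76% of counts). Estimated counts were summed to gene symbols, rounded, and fitted in edgeR 4.0.16 (R 4.3.3) with TMM scaling and robust quasi-likelihood F tests. Genes were kept when over 1 CPM in at least 3 libraries, that is 15975 genes in CD8, 17243 in CD4 (12 libraries each) and 19092 over 24 libraries for CD8 versus CD4. SE is the log2 fold change over the square root of F. All 10 members were tested in every fit. Of 17 comparisons, 2 (time by cell type) were added after levels were seen. Members and lists were chosen with earlier results of these data known. Named genes were all members, every other BCL2 family gene called, the 2 highest and 2 lowest called genes of each other list, and for likeness the 3 protein-coding genes with the highest r. A result that this rule names is not reported here. The deposited TPM were summed to genes for levels between genes and ratios. Alternatives were DESeq2 1.42.0, its size factors, limma-voom (limma 3.58.1), no filter, length-scaled TPM, a replicate block, a log2 threshold of 1, leaving out each library or the WT pre-tx libraries, TMM over 24 libraries and, for genotype by cell type, a block by mouse, the last 2 added after seeing the data. Fits were also run on simulated counts. There all libraries shared the same mean profile apart from the altered genes. That run therefore cannot show how the scaling behaves with the marker differences of these libraries.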

Additional observations from a re-analysis of the deposited data

Results flagged for a closer look

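Effects of members that differed between groups by an interaction test (edgeR) are listed here. The Cat-Tg effect on Bax in CD8 T cells was lower post-tx than pre-tx by a log2 difference of -1.84, and that on Bcl2a1b in CD4 T cells by -3.87. The post-tx change of Bcl2 was lower in CD8 than in CD4 T cells by -2.01 in Cat-Tg and by -3.28 in WT, and in WT that of Bax was higher in CD8 by 2.05 and that of Bak1 by 2.90. All but the Cat-Tg value of Bcl2 compare WT pre-tx libraries, whose coreceptor transcripts went against their labels. The fit behind the Cat-Tg value of Bcl2 also includes those libraries, and its call was lost without them. Calls of Bcl2 in Cat-Tg, of Bak1 in WT and of Bax by genotype and time in CD8 were also lost in other fits given above. The part of the WT pre-tx libraries was not tested.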

How the results depend on the processing

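Of 295 alternatives for 39 log2 fold changes of named members, 264 kept direction and side of the threshold, 22 lost the call, 9 gained it and 0 reversed; of 270 fits that left out 1 library, 207, 60, 3 and 0 did. The number of members called (of 10) changed as follows, and the causes were not tested. DESeq2 also called more genes in all than edgeR in every comparison. Between genotypes it went from 0 to 3 with DESeq2 and 1 without a filter in CD8 post-tx, from 2 to 1 with limma-voom in CD4 pre-tx, and from 0 to 1 with DESeq2, length-scaled TPM, the replicate block, without the WT pre-tx libraries or with TMM over 24 libraries in CD4 post-tx; leaving out a library gave 0 to 1, 1 to 3 and 0 to 0. Over time, leaving out a library gave 1 to 3 in Cat-Tg CD8, 4 to 5 in WT CD8, 7 to 9 in Cat-Tg CD4 and 3 to 4 in WT CD4. The 5 of WT CD8 became 6 with DESeq2, limma-voom, length-scaled TPM or TMM over 24 libraries and 4 with the block. The 9 of Cat-Tg CD4 became 8 with limma-voom, the block, TMM over 24 libraries or the log2 threshold, and without a filter or the WT pre-tx libraries. The 5 of WT CD4 became 4 with DESeq2's size factors, TMM over 24 libraries or the log2 threshold. Between CD8 and CD4 the 1 of Cat-Tg post-tx became 0 without a filter, with length-scaled TPM or with the block (leave-one-out 0 to 1), and the 0 of WT pre-tx became 1 with DESeq2. For genotype by time, CD8 gave 3 with DESeq2, 2 with limma-voom and 0 without a filter or with the block (leave-one-out 0 to 4), and CD4 gave 3 with DESeq2, its size factors or TMM over 24 libraries and 2 without a filter (leave-one-out 1 to 3). For genotype by cell type, DESeq2 and its size factors gave 1 (leave-one-out 0 to 1). For time by cell type in Cat-Tg the 1 became 0 without a filter or the WT pre-tx libraries, and with length-scaled TPM or the block (leave-one-out 0 to 1). In WT the 3 became 4 with DESeq2 and 2 with length-scaled TPM or the block (leave-one-out 2 to 4).

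Calls that rested on single libraries are named or counted beside the results. TMM over 24 libraries, chosen after seeing the data, moved the median log2 fold change of all genes by up to 0.46 (genotype by time, CD4), and DESeq2's size factors by up to 0.34.

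The CD8 and CD4 libraries of a group come from the same mice, but no source says that a number marks a mouse. In no comparison did every same-numbered pair correlate over 0.1 in its deviations from the group means, CD8 against CD4 included (-0.263 to 0.164); the tests in the report have no block unless one is named. For CD8 against CD4 and time by cell type the block is by genotype, time and number; for genotype by cell type such a block by mouse was added after seeing the data and called 0 members. In CD8 pre-tx between genotypes (0.127, 0.198 and 0.063) and Cat-Tg CD4 over time (0.108, 0.057 and 0.040) every library correlated best with its own number, a hint from the data only. Of the members, the replicate block added the call of Bcl2a1b in CD4 post-tx between genotypes (-1.01). It removed those of Bcl2l1 in WT CD8 (1.73) and Bax in Cat-Tg CD4 over time (0.73), Bcl2 between Cat-Tg CD8 and CD4 post-tx (-1.29), Bax in genotype by time in CD8 (-1.77), and in time by cell type Bcl2 in Cat-Tg (-2.04) and Bak1 in WT (2.78).

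Counts of all genes called ranged from 25 (block) to 1368 (DESeq2) around 266 in CD8 post-tx between genotypes and 5 to 570 when a library was left out (lowest without Cat-Tg CD8 post-tx replicate 2). The block and DESeq2 gave 953 and 2616 for 1436 in CD8 pre-tx, with 647 without Cat-Tg CD8 pre-tx replicate 3. DESeq2 gave 2678 for 1754 in CD4 post-tx, with 771 without WT CD4 post-tx replicate 2. In CD4 pre-tx 3525 became 2289 without Cat-Tg CD4 pre-tx replicate 2, and over time in WT CD4 4207 became 2541 without post-tx replicate 3. Over time in Cat-Tg CD8 DESeq2 gave 4288 for 2234, with 976 without Cat-Tg CD8 post-tx replicate 2. For CD8 against CD4 DESeq2 gave 637 for 291 (Cat-Tg pre-tx), 1987 for 1146 (Cat-Tg post-tx) and 456 for 7 (WT pre-tx), and the block 745 in Cat-Tg post-tx and 1604 for 2510 in WT post-tx. For genotype by time in CD8 the block and DESeq2 gave 1117 and 2874 for 1710, for genotype by cell type 9 and 713 for 120, and for time by cell type 79 and 529 for 181 in Cat-Tg and 1815 and 3993 for 3021 in WT. Few counts lie behind Bak1 at 0.381 to 4.1 CPM in pre-tx libraries.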
